A study of Rattus norvegicus with 18 samples.

Results

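Glutamate and GABA receptor subunit genes were described in 3 brain regions that control food intake. They were the hypothalamic arcuate (ARC) and paraventricular (PVN) nuclei and, in the hindbrain, the solitary tract nucleus (NTS). A gene was taken as a member when the platform's annotation gave its probe set exactly 1 symbol and that symbol was one of the AMPA, kainate, delta, NMDA or metabotropic glutamate receptor genes, or one of the GABA-A or GABA-B receptor genes. The rule used symbols and no measured level, but was set with earlier results of these data known. It gave 41 genes among 23188 gene probe sets, each with 1 probe set. Of these, 3 encode AMPA receptor subunits (Gria1, Gria3 and Gria4), 5 kainate subunits (Grik1 to Grik5), 1 a delta subunit (Grid1) and 7 NMDA subunits (Grin1, Grin2a to Grin2d, Grin3a and Grin3b). The other members were 7 metabotropic receptors (Grm2 to Grm8), 16 GABA-A subunits (Gabra2 to Gabra6, Gabrb1, Gabrb2, Gabrd, Gabre, Gabrg1, Gabrg3, Gabrp, Gabrq and Gabrr1 to Gabrr3) and 2 GABA-B subunits (Gabbr1 and Gabbr2).

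Glutamate is the main fast excitatory transmitter of the brain and GABA the main inhibitory one. AMPA, kainate and NMDA receptors are tetrameric cation channels, GABA-A receptors are pentameric chloride channels whose subunit makeup sets their kinetics and drug sensitivity, and metabotropic glutamate and GABA-B receptors act through G proteins. Neurons of the ARC and PVN receive dense GABA and glutamate input, and the NTS receives glutamatergic vagal afferents from the gut.

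The rats were ovariectomized (OVX) female Sprague-Dawley animals, 90 days old. They received 2 subcutaneous injections, on Day 1 and Day 2, of 10 µg of estradiol benzoate (EB) dissolved in oil, or the 0.1 mL oil vehicle alone (Oil). Brains were taken and frozen on Day 4 and stored until tissue was punched from them. Ovariectomy was common to every group, so the Oil-treated rats are the estrogen-deficient controls and no intact group was part of the design. Each region gave 3 EB-treated and 3 Oil-treated samples, called here by region, treatment and replicate number (PVN Oil 1), on 18 Rat Clariom S Pico arrays in all. The labels call these biological replicates and the study had 3 rats per treatment, so the regions were sampled from the same 6 rats. The labels do not say which samples share a rat. The tests between regions took all 18 arrays as independent, although they are repeated samples of 6 rats. A punch holds many cell types and may reach adjacent nuclei, so fewer cells of a type and less RNA per cell cannot be told apart.

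Values are signal intensities (Log 2), and 1 unit is a 2-fold difference. Background was taken on each array as the median of 23 background probe sets, between 6.74 and 7.60, and 30 to 34 of the 41 members exceeded it. Marker genes of the regions went against the label of some samples. Oxt, which encodes oxytocin and marks the PVN, read 15.78, 16.10 and 12.36 in PVN EB 1 to 3 and 14.87 in PVN Oil 2, but 6.98 and 6.92 in PVN Oil 1 and Oil 3, below background. It also read 14.52 in ARC Oil 1 against 7.02 to 7.92 in the other ARC samples. The mean of 8 midbrain and mammillary marker genes was 8.11 and 8.14 in PVN Oil 1 and Oil 3 against 6.12 to 6.54 in the other PVN samples, and 9.28 and 8.34 in ARC EB 2 and EB 3 against 7.02 to 7.47 in the other ARC samples. Pomc, a defining ARC transcript, was 5.38 in ARC EB 2, below background, and 9.78 to 13.71 in the rest of the ARC. The mean of 7 thalamus markers was 10.10 and 9.60 in PVN EB 1 and EB 2 against 8.16 to 8.51 in the other PVN samples. Gcg, made by preproglucagon neurons of the NTS, was 7.25 in NTS Oil 3 against 11.16 to 13.06 in the other NTS samples. PVN EB 3 carried ventromedial hypothalamic markers (mean of 4 genes 9.36 against 7.40 to 7.73 in the other PVN samples). Every PVN sample but Oil 2 thus carried markers of another region or lacked Oxt, and the results below are also given without subsets of these samples.

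Signal above background was found for 27 of the 41 members in all 18 arrays. These included Gria1, Gria3 and Gria4, both GABA-B subunits, the obligatory NMDA subunit Grin1, and the GABA-A subunits Gabra2, Gabra3, Gabrb1 and Gabrg1. Another 6 exceeded background in no array: Gabra6, an α subunit best known from cerebellar granule cells, Gabrd, the δ subunit of extrasynaptic receptors, Gabrp, and the retinal ρ subunits Gabrr1, Gabrr2 and Gabrr3. The remaining 8 exceeded it in some arrays. Gabre did so in 12 arrays, all of ARC and PVN, and Grin3b in 3 arrays, all of NTS. The map of all members by sample shows the NTS columns set apart from the other 12 for many genes.

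**Figure D1:**
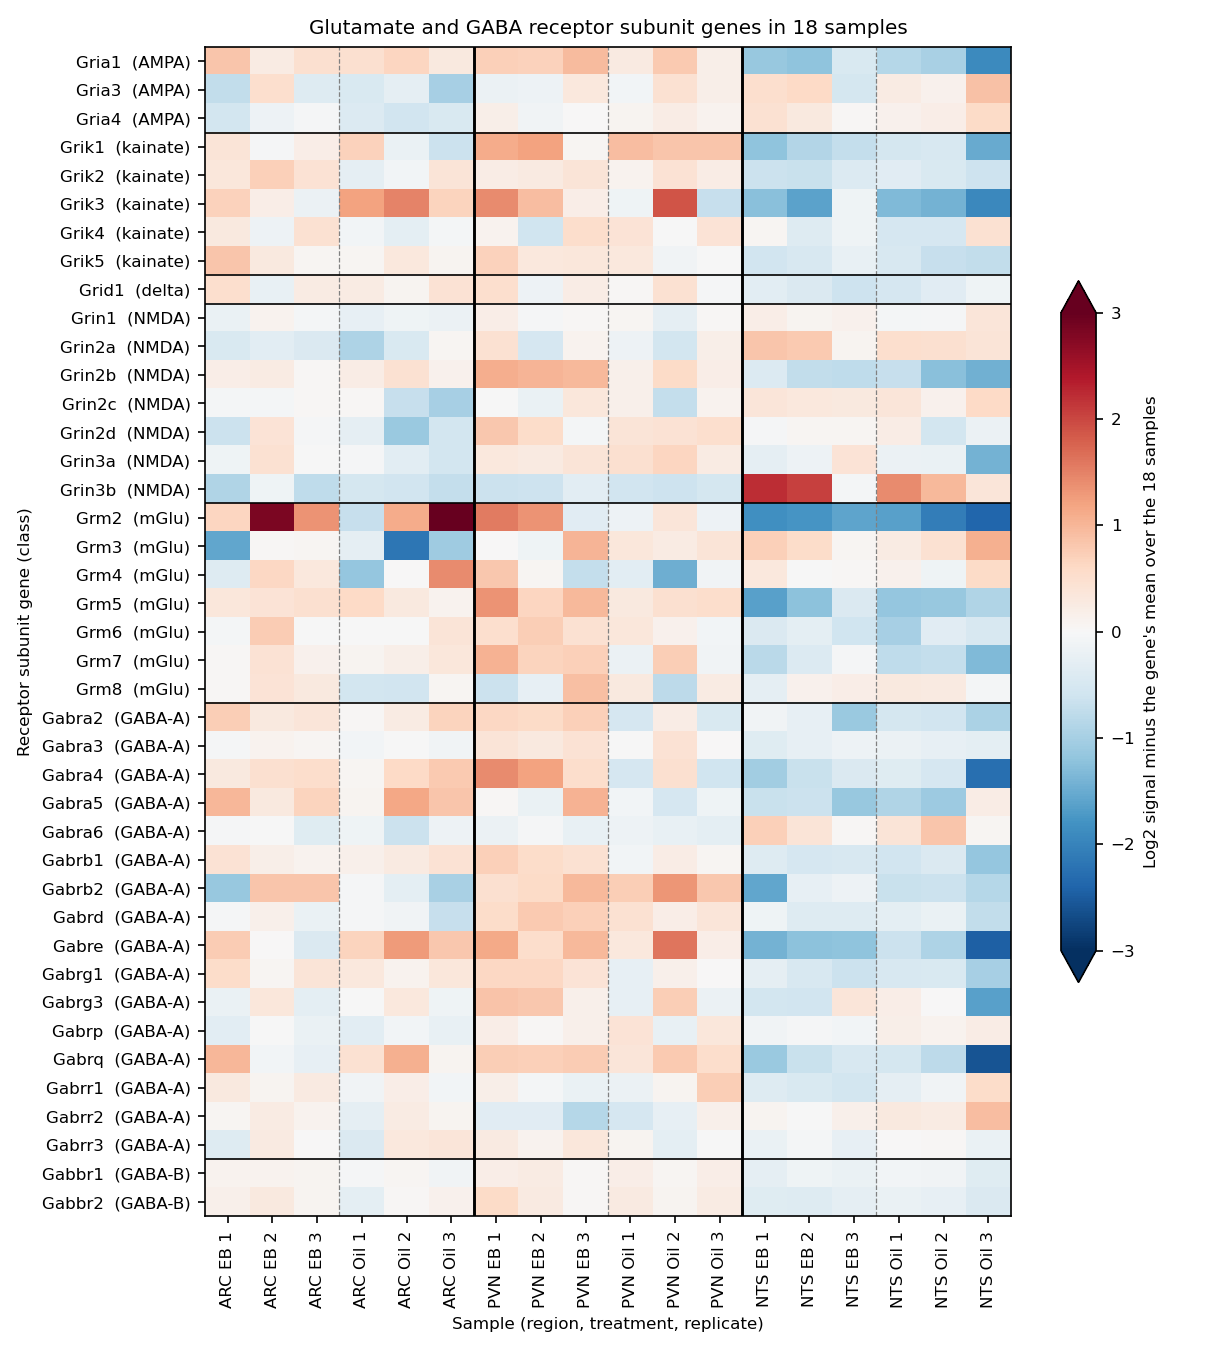
Log2 signal of each of the 41 receptor subunit genes (rows, grouped by class) in each of the 18 samples (columns), as the difference from that gene's mean over the 18 samples. Colours run from 3 below (blue) to 3 above (red), solid lines part the regions and dashed lines part EB from Oil. Grm2 was lowest in NTS, and Grin3b was high only in NTS samples. NTS Oil 3 had the lowest signal of the 6 NTS samples for 17 members (41.5% beside 22.1% of all gene probe sets). It had the highest for 12 (29.3% beside 27.1%).

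The first comparison asked how subunit expression differed between the regions, with the means of the EB- and Oil-treated groups averaged within each region. Subunits of every ionotropic class but delta, and several metabotropic receptors, differed by 2-fold or more between NTS and hypothalamus, mostly with the lower signal in NTS. The NTS minus ARC difference passed an adjusted p of 0.05 and a fold change of 2 for 11 members, 2 higher and 9 lower, or 26.8% of the members, where 7.13% of all gene probe sets passed (2.98% higher and 4.15% lower). For NTS minus PVN, 12 members passed, 1 higher and 11 lower, or 29.3% of the members, where 5.55% of all gene probe sets passed (2.95% higher and 2.6% lower). The median difference over the members was -0.36 for NTS minus ARC and -0.69 for NTS minus PVN, beside -0.06 and 0.00 over all gene probe sets. Both comparisons use the same NTS samples. Without any minimum fold, 28 members differed in each: 7 were higher and 21 lower against ARC, and 4 were higher and 24 lower against PVN. These are 68.3% of the members in each, beside 44.3% (18% higher and 26.3% lower) and 37.5% (18.5% higher and 19% lower) of all gene probe sets. The GABA-A subunits among the higher members, 1 against ARC and 2 against PVN (Gabra6 and Gabrr2), exceeded background in no array. Grin3b, also among the higher members, exceeded it in only 3 arrays. Of the lower members, Gabrd, counted against PVN, exceeded background in no array, and Gabre and Grm6 in no NTS array. The NTS samples did not overlap the ARC samples for 20 members (48.8% beside 20.3%) or the PVN samples for 19 (46.3% beside 17.7%).

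**Figure D2:**
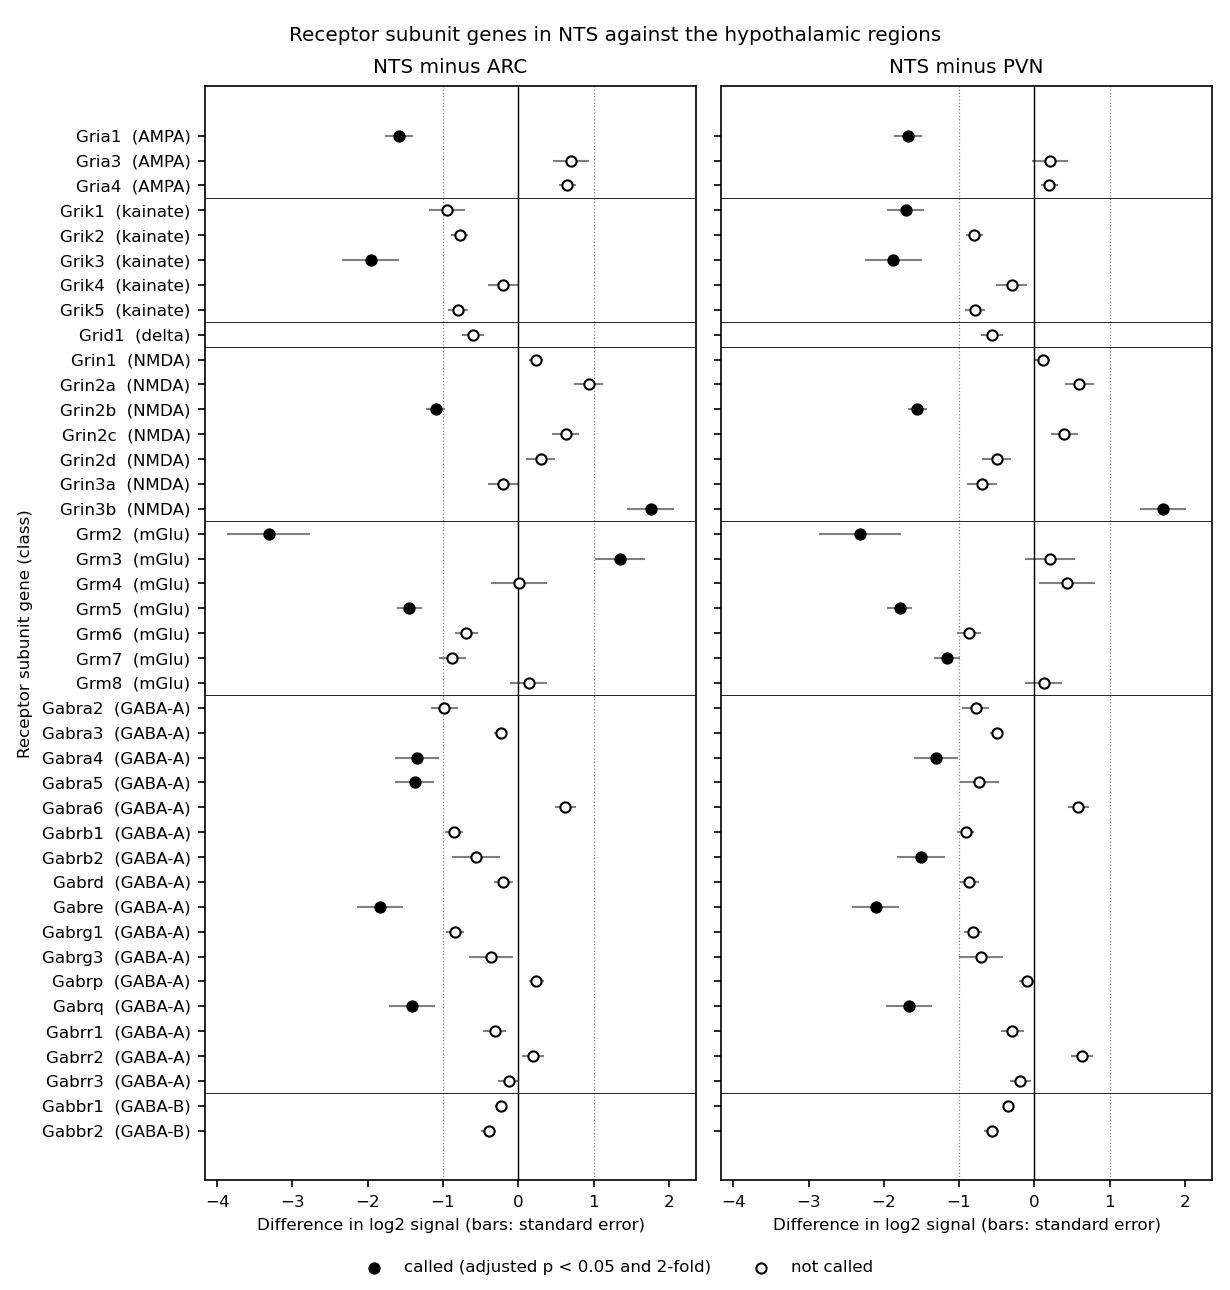
Difference in log2 signal for each of the 41 genes, NTS minus ARC (left) and NTS minus PVN (right), as the mean of the EB and Oil groups over 18 samples with limma's standard error as bars. Filled points passed the adjusted p and the 2-fold threshold (dotted lines), 11 on the left and 12 on the right, and most of them lie left of 0.

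Among the metabotropic receptors, Grm2 showed the largest difference of the 41 genes in both comparisons. Grm2 is a Gi-coupled autoreceptor of glutamatergic terminals. It read 10.02 at the lowest, 11.95 at the median and 14.14 at the highest in the 6 ARC samples, 10.37, 10.84 and 12.27 in PVN, and 8.34, 8.92 and 9.14 in NTS. No NTS sample reached the lowest ARC or PVN sample. The difference was -3.32 (SE 0.55, adjusted p = 2.09e-04), a 9.97-fold lower signal, against ARC and -2.32 (SE 0.55, adjusted p = 0.00374), 4.99-fold lower, against PVN. Among Oil-treated samples alone the difference from PVN was -2.06 with an adjusted p of 0.104, and without PVN EB 1 and EB 2 it was -1.72 with an adjusted p of 0.0728.

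Grm5 couples to Gq and sits at the edge of the postsynaptic density. It spanned 9.94 to 10.44 in ARC, 10.14 to 11.19 in PVN and 8.21 to 9.43 in NTS, with medians of 10.22, 10.43 and 8.70 and no overlap of NTS with either region. It was lower in NTS by 2.73-fold against ARC (adjusted p = 1.27e-05) and 3.46-fold against PVN (adjusted p = 2.62e-06). Grm7, a presynaptic receptor of low glutamate affinity, was 2.23-fold lower in NTS than in PVN (adjusted p = 1.34e-04), although the samples overlapped, while its difference from ARC was 1.83-fold and did not reach the fold threshold.

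Grm3, the group II receptor that astrocytes also express, ran the other way. Its lowest, median and highest signals were 9.26, 10.76 and 11.49 in ARC, 11.29, 11.71 and 12.44 in PVN, and 11.48, 11.94 and 12.49 in NTS. The ARC samples were the more variable, and the regions overlapped. It was 2.54-fold higher in NTS than in ARC (difference 1.35, SE 0.33, adjusted p = 0.00414) but not among EB-treated samples alone (0.94, adjusted p = 0.184). Grm4, Grm6 and Grm8 passed the 2-fold threshold in neither comparison.

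The AMPA subunits differed in direction. Gria1, the subunit most tied to activity-dependent insertion, was 12.81 at the lowest, 13.04 at the median and 13.40 at the highest in ARC, 12.74, 13.26 and 13.50 in PVN, and 10.65, 11.50 and 12.11 in NTS. All NTS samples lay below all hypothalamic samples, and the difference was 3.00-fold against ARC (-1.59, SE 0.19, adjusted p = 1.41e-05) and 3.21-fold against PVN (-1.68, SE 0.19, adjusted p = 1.06e-05). Gria4, by contrast, was 0.65 higher in NTS than in ARC on the log2 scale (SE 0.11, adjusted p = 2.74e-04), with 13.70 to 14.25 in NTS and 13.09 to 13.64 in ARC. This was under 2-fold, as was the 0.70 for Gria3 (adjusted p = 0.0266).

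The kainate subunits were all lower in NTS than in ARC on average, and 4 of 5 at an adjusted p under 0.05 in each comparison. Grik3 had the largest difference. Its 6 samples spanned 8.93 to 10.58 in ARC (median 9.78), 8.40 to 10.98 in PVN (median 9.66) and 7.17 to 8.96 in NTS (median 7.73), and 1 sample, NTS EB 3, was higher than some hypothalamic samples. It was 3.88-fold lower than in ARC (adjusted p = 7.51e-04) and 3.66-fold lower than in PVN (adjusted p = 0.00129). Among EB-treated samples alone the difference from ARC was -1.24 with an adjusted p of 0.0706. Grik1, whose receptors modulate GABA release in hypothalamus and elsewhere, read 8.41 to 9.43 in NTS and 9.99 to 11.12 in PVN, a 3.27-fold difference (adjusted p = 8.47e-05) with no overlap.

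NMDA subunits differed by type. Grin2b, which confers slow decay and dominates early in development, was the member with the smallest adjusted p in both comparisons. It was 11.30, 11.49 and 11.72 (lowest, median and highest) in ARC, 11.43, 12.05 and 12.37 in PVN, and 9.84, 10.51 and 10.85 in NTS, with no overlap. It was 2.14-fold lower in NTS than in ARC (adjusted p = 9.58e-06) and 2.94-fold lower than in PVN (adjusted p = 6.37e-07). Grin2a, the subunit that gains on Grin2b during maturation in rodent cortex, was higher in NTS by 0.94 against ARC (SE 0.19, adjusted p = 0.00119) and by 0.60 against PVN (SE 0.19, adjusted p = 0.0235), below 2-fold in each.

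Grin3b, a glycine-binding subunit described in motor neurons of rodents, was 5.18 to 5.96 in ARC and 5.45 to 5.76 in PVN, below background in every sample. In NTS it read 8.29, 8.14 and 6.02 in EB 1 to 3 and 7.51, 7.05 and 6.44 in Oil 1 to 3, so that 3 samples exceeded background. All NTS samples lay above all others, with a difference of 1.76 (adjusted p = 3.39e-04) against ARC and 1.72 (adjusted p = 5.10e-04) against PVN, and no fold is given because the NTS mean itself lay below background. Without 8 samples (listed below) the difference from PVN had an adjusted p of 0.0770.

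**Figure D3:**
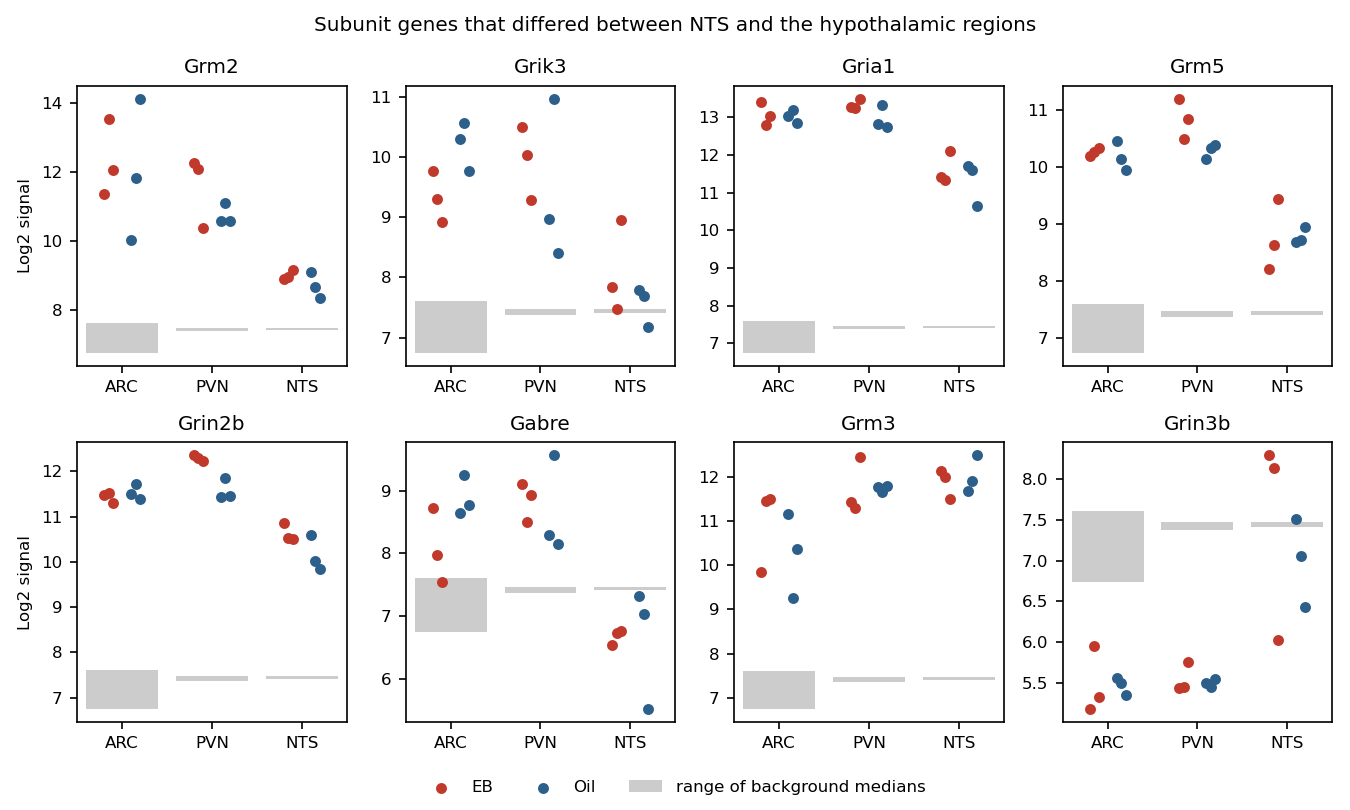
Log2 signal of 8 subunit genes in each sample of ARC, PVN and NTS, with EB-treated samples in red, Oil-treated samples in blue and the range of the arrays' background medians as a grey band. Gria1, Grm5, Grm2 and Grin2b had no NTS sample within the range of the other regions, Gabre was below background in all NTS samples, and Grin3b exceeded it in 3 NTS samples.

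Among the GABA-A subunits, 5 were called in at least 1 of the comparisons, all lower in NTS. Gabre, the ε subunit known from hypothalamus and brainstem, read 7.54 to 9.25 in ARC, 8.16 to 9.57 in PVN and 5.51 to 7.31 in NTS, where no sample exceeded background. With the background median in place of the NTS samples it was at least 2.04-fold higher in ARC (adjusted p = 2.42e-04) and at least 2.47-fold higher in PVN (adjusted p = 1.01e-04) than in NTS. Gabrq, the θ subunit, encoded near Gabre and Gabra3 on the X chromosome, was 2.65-fold lower in NTS than in ARC (adjusted p = 0.00180) and 3.18-fold lower than in PVN (adjusted p = 6.25e-04). Gabra4 was 2.54-fold and 2.47-fold lower in NTS (adjusted p = 0.00183 and 0.00274), but against PVN it was not called without PVN EB 1 and EB 2 or among Oil-treated samples alone. Gabra5, an α subunit of extrasynaptic receptors, was 2.59-fold lower than in ARC (adjusted p = 6.45e-04) and 1.66-fold lower than in PVN (adjusted p = 0.0375). Gabrb2, a common β subunit, was 2.83-fold lower than in PVN (adjusted p = 0.00195) and differed by -0.56 from ARC (adjusted p = 0.172). Both GABA-B subunits were lower in NTS with adjusted p under 0.05, with differences of -0.23 for Gabbr1 and -0.40 for Gabbr2 against ARC and -0.34 and -0.57 against PVN, well under 2-fold.

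These differences were recomputed without PVN Oil 1 and Oil 3, ARC Oil 1, EB 2 and EB 3, and NTS Oil 3. All 11 members called for NTS minus ARC were among the 13 then called, and all 12 called for NTS minus PVN were the 12 then called. Without PVN EB 1 and EB 2 in addition, 8 samples in all, PVN kept 1 sample per treatment, whose spread was taken from the other groups. Then 13 members were called for NTS minus ARC, 11 of them shared, and 11 for NTS minus PVN, 10 of them shared, with Grm2 and Grin3b lost. Without PVN EB 1 and EB 2 alone, 10 of the 12 were called, with Grm2 and Gabra4 lost. PVN EB 3 was kept in these fits. Their counts stand without the share of all gene probe sets called in the same fit, so they are not read as particular to the members. Over all alternatives 7 of the 11 members (Gabra4, Gabra5, Gabre, Gria1, Grin3b, Grm2 and Grm5) were called for NTS minus ARC in every fit, and Gabrq, Grik3, Grin2b and Grm3 were not. For NTS minus PVN 8 of the 12 were (Gabre, Gabrq, Gria1, Grik1, Grik3, Grin2b, Grm5 and Grm7), and Gabra4, Gabrb2, Grin3b and Grm2 were not. Markers of other cell types also moved with the region. All 5 measured oligodendrocyte markers were called higher in NTS than in ARC and none against PVN, with means of 13.74 to 15.61 over the NTS samples, 11.22 to 14.27 in ARC and 12.53 to 14.86 in PVN. Of 8 general neuron markers, the neurofilament genes Nefl and Nefm were called higher and Syt1 lower in both comparisons, and the mean of the list was 14.25 to 14.88 in NTS, 13.38 to 13.83 in ARC and 13.63 to 14.06 in PVN. The mean of 5 choroid plexus markers was 12.47 to 14.51 in NTS EB 3, Oil 1 and Oil 2 and 6.33 to 8.49 in the other samples. Their part in the differences was not tested.

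PVN and ARC differed in fewer subunits. Grm3 alone was called, 2.20-fold higher in PVN (1.14, SE 0.33, adjusted p = 0.0235), with overlapping samples, where 2.23% of all gene probe sets passed (0.349% higher and 1.88% lower). This call was lost without ARC EB 1, ARC Oil 2 or PVN EB 3, at adjusted p of 0.0566 to 0.0586, and Gabrb2 and Grin2d were called beside it without PVN Oil 1 and Oil 3 and ARC Oil 1, EB 2 and EB 3. At any fold, 9 members were higher and 1 lower in PVN with adjusted p under 0.05, 24.4% of the members beside 21.4% of all gene probe sets (7.35% higher and 14.1% lower). They included Grin2d (0.80), Grik1 (0.76), Grin2b (0.46) and Gria4 (0.45). Gabrd, higher in PVN with the smallest p of any member here (adjusted p = 0.00210), was also counted but exceeded background in no array.

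Genes that act with the receptors were counted by the same rule. Of all gene probe sets, 2.98% were called higher and 4.15% lower in NTS than in ARC, and 2.95% and 2.6% against PVN. Of 11 measured AMPA and kainate receptor auxiliary subunits, 4 were lower in NTS than in ARC (Cacng4, Cnih2, Cnih3 and Shisa7) and 3 of them lower than in PVN, and none was higher. Shisa7 was below background in all NTS samples, so its differences are bounds of at least 1.53-fold and 1.57-fold. The TARP gene Cacng4, which slows AMPA receptor gating, differed by -1.20 (SE 0.10) against ARC and -1.26 (SE 0.10) against PVN. Of 14 synaptic organizers, 4 were lower than in ARC and 8 lower than in PVN, with Cbln4, a cerebellin, at -1.96 and -1.95. Of 15 postsynaptic scaffold genes, Shank2 and Grip1 were lower than in ARC and none was called against PVN. Of 8 GABA receptor partners only Kctd16, an auxiliary protein of GABA-B receptors, was called, at -1.85 and -1.30.

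Of 7 glycine receptor and transporter genes, Slc6a5, the transporter of glycinergic terminals, read 14.04 to 15.62 in NTS and was below background in all ARC samples and in 5 of the 6 PVN samples, a signal at least 137-fold higher than in ARC. Glra1, the adult-type receptor subunit, was higher by 5.25 (SE 0.32) against ARC and 5.01 (SE 0.32) against PVN. Glra2, the fetal-type subunit, differed by -1.01 and -1.80, and Glra3 by -1.24 against ARC. Among 13 genes of transmitter synthesis and transport, 2 were called higher and 4 lower in NTS than in ARC, and 1 higher and 2 lower than in PVN. The vesicular glutamate transporter Slc17a6 differed by -1.10 and -1.09. Slc17a8 was below background in NTS, at least 1.11-fold and 1.57-fold lower. Slc17a7 was below background in PVN and at least 3.51-fold higher in NTS, while in ARC it read 9.99 in EB 3 and 9.40 in Oil 1 and 4.97 to 5.11, below background, in the rest. The vesicular GABA transporter Slc32a1 was higher in NTS than in ARC by 1.21 (SE 0.30), although 2 of 6 ARC samples exceeded background. Lower than in ARC were the GABA transporter Slc6a13, with 2 of 6 NTS samples above background, and the glial glutamate transporter Slc1a3 at -1.16 (SE 0.14). The median difference of these lists for NTS minus PVN was -0.44 for auxiliary subunits, -1.05 for organizers, -0.31 for scaffolds, -0.33 for GABA partners, -0.48 for transmitter genes and 0.49 for glycine genes, beside 0.00 over all gene probe sets.

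The second comparison was the one the study was designed for, EB against Oil within each region. Calls here required at least a 2-fold change and an unadjusted p of 0.05 or less in limma's moderated test. One member, Gabra4 in PVN, was called in the 3 regions together. No member reached an adjusted p of 0.05 anywhere, where 0% of all gene probe sets did in ARC and PVN and 0.00431% in NTS, and the smallest adjusted p was 0.852 in ARC, 0.681 in PVN and 0.934 in NTS. With 3 samples against 3, the smallest two-sided p of an exact permutation test is 0.1, so that test cannot pass 0.05 for a single gene.

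**Figure D4:**
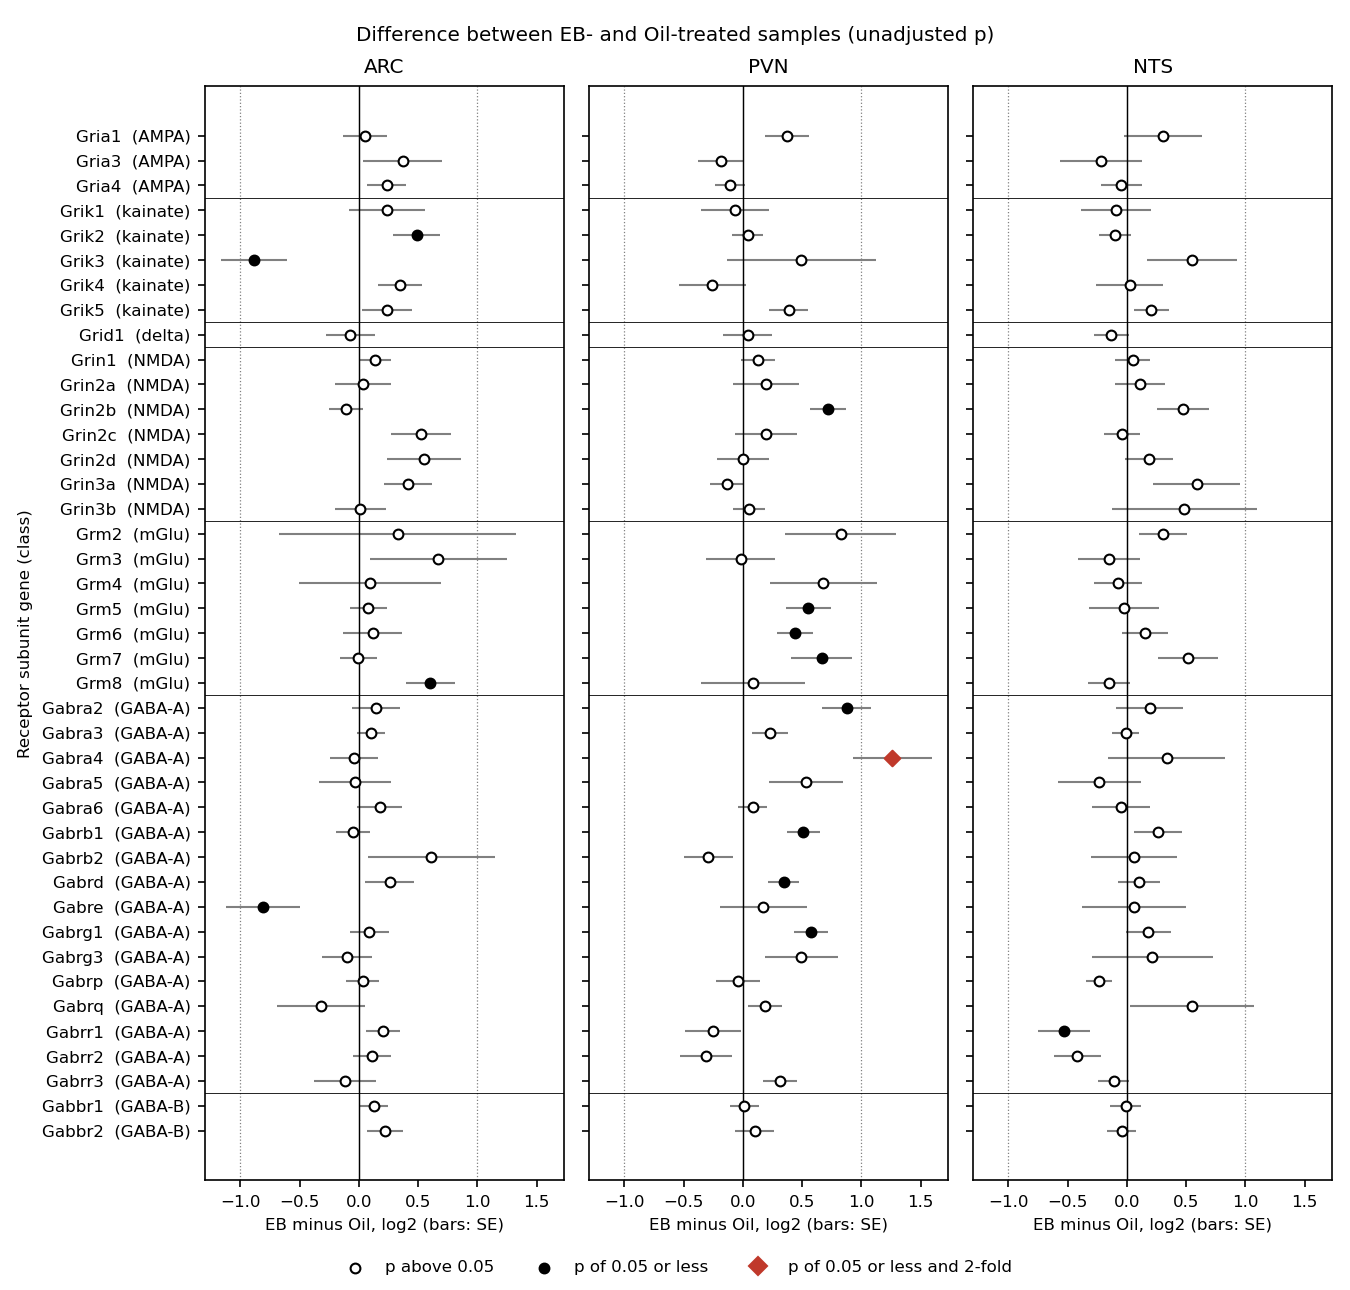
EB minus Oil difference in log2 signal for each of the 41 genes in ARC, PVN and NTS (3 samples against 3), with limma's standard error as bars. Filled points have an unadjusted p of 0.05 or less (4 in ARC, 9 in PVN and 1 in NTS), and the diamond, Gabra4 in PVN, also passed 2-fold.

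In PVN, 1 of 41 members (2.44%) was called, where 0.332% of all gene probe sets were called and 0.151% were called higher. Without a minimum fold, 9 members had an unadjusted p of 0.05 or less, all higher in EB-treated samples, or 22% of the members beside 3.22% of all gene probe sets (6.39% in either direction). They were Grin2b, Gabra2, Gabrg1, Gabra4, Gabrb1, Grm5, Grm6, Grm7 and Gabrd, the last below background in every sample. In 10 members, all higher with EB, the EB and Oil samples did not overlap (24.4% beside 5.96% of all gene probe sets), and 31 of the 41 means lay above 0 (75.6% beside 49.5%). Of the 14 synaptic organizers, C1ql1 was called lower with EB in PVN (-1.75, SE 0.43, limma unadjusted p = 0.00427, adjusted p = 0.681), beside 0.181% of all gene probe sets. Its highest samples were PVN Oil 1 and Oil 3, at 13.44 and 13.62.

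Gabra4 encodes the α4 subunit, which pairs with δ in extrasynaptic receptors and is known in rodents to change with ovarian steroids. Its signal was 12.56, 12.35 and 11.69 in PVN EB 1 to 3 and 10.64, 11.62 and 10.56 in PVN Oil 1 to 3. The groups did not overlap, but EB 3 and Oil 2 lay close to each other. The means were 12.20 ± 0.46 and 10.94 ± 0.59 (SD, n = 3), a difference of 1.26 (SE 0.33) or 2.40-fold (limma unadjusted p = 0.00581, adjusted p = 0.681, exact permutation p = 0.1). The lowest samples, Oil 1 and Oil 3, were those with no Oxt signal and high midbrain and mammillary markers, and the highest, EB 1 and EB 2, were those with high thalamus markers. Without Oil 1 and Oil 3 the difference was 0.58 (limma unadjusted p = 0.177), and without EB 1 and EB 2 it was 0.75 (limma unadjusted p = 0.149), neither of them called.

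Gabra4 lies with 3 other GABA-A genes on chromosome 14, in the order Gabrb1, Gabra4, Gabra2 and Gabrg1, between 36434339 and 37821651 of the GRCr8 assembly, with 1 other protein-coding gene among them. These 4 genes held 4 of the 5 smallest p-values for EB in PVN, and the set was noticed after its values were seen. Gabrb1 is a β subunit, Gabra2 the α2 subunit of many forebrain synapses, and Gabrg1 a γ subunit.

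Gabra2 was 13.20, 13.14 and 13.28 in EB 1 to 3 and 12.07, 12.80 and 12.12 in Oil 1 to 3, a difference of 0.88 (SE 0.21, limma unadjusted p = 0.00315). Gabrg1 was 13.98, 13.98 and 13.78 against 13.13, 13.51 and 13.39, a difference of 0.57 (SE 0.15, limma unadjusted p = 0.00471). Gabrb1 was 11.88, 11.72 and 11.63 against 11.08, 11.38 and 11.23, a difference of 0.51 (SE 0.14, limma unadjusted p = 0.00646). In each of them every EB sample exceeded every Oil sample, the smallest gap was to Oil 2, and the fold change stayed under 2. Without Oil 1 and Oil 3 the differences were 0.41, 0.41 and 0.36 with unadjusted p of 0.0734, 0.0861 and 0.122. Without EB 1 and EB 2 they were 0.95, 0.44 and 0.40, with unadjusted p of 0.0320, 0.0968 and 0.102. Without Oil 2 alone, Gabra2 (1.11), Gabra4 and Grik3 were called, and without EB 3 alone Gabra4, Grm2 and Grm4. These calls are given without the share of all gene probe sets called in the same fits.

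**Figure D5:**
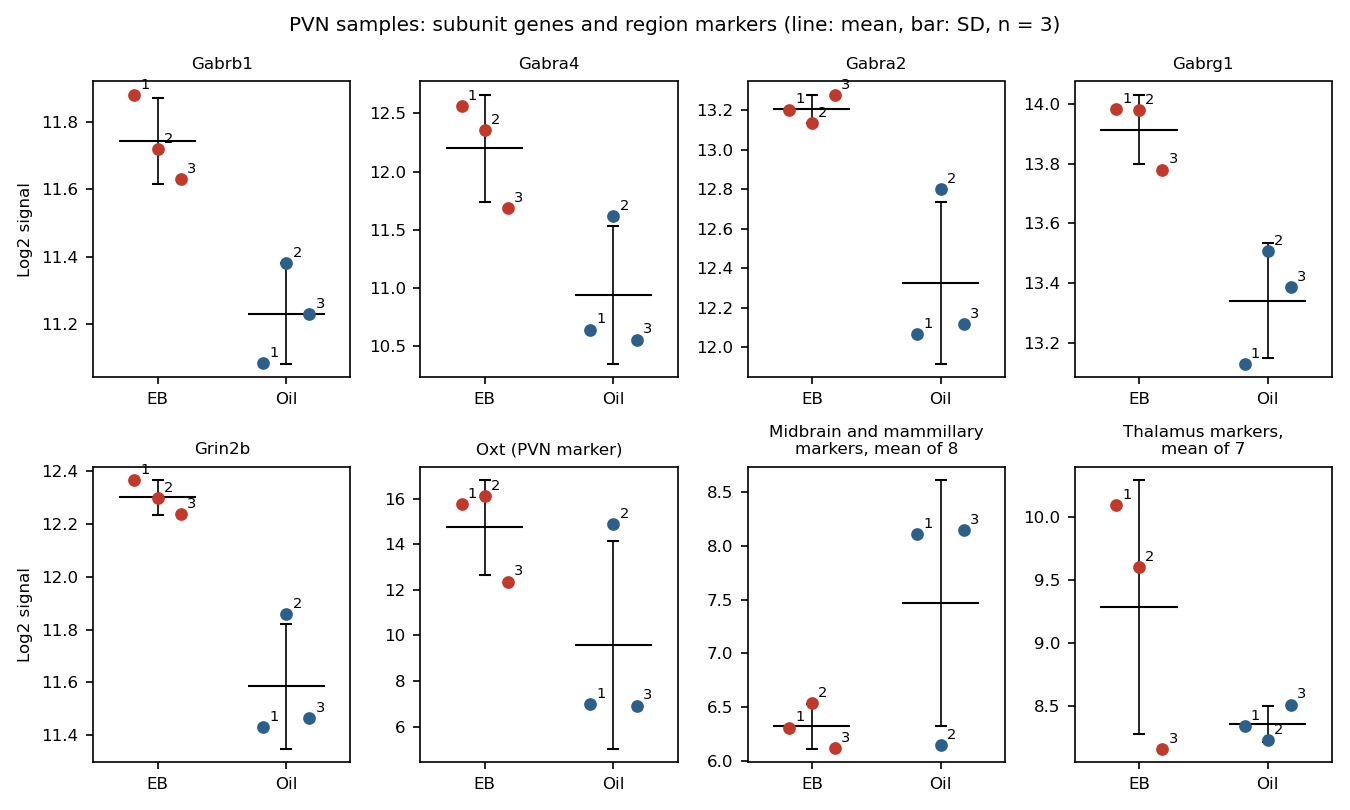
Log2 signal in the 6 PVN samples (numbers are replicates, EB in red, Oil in blue, line and bar the mean and SD of 3) for the chromosome 14 GABA-A genes, Grin2b, the PVN marker Oxt and the means of 8 midbrain and mammillary and 7 thalamus markers. The EB samples lay above all Oil samples for the 5 subunit genes, while Oil 1 and Oil 3 had no Oxt signal above background and EB 1 and EB 2 had the highest thalamus markers.

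The bases before the annotated start of Gabra4 and Gabrg1, both on the plus strand, are shown because both genes are in the chromosome 14 group with small unadjusted p-values in PVN. Gabra4 was taken from chr14:36944497-36944746 and Gabrg1 from chr14:37750042-37750291 of GRCr8 (RefSeq), 250 bases each, written 5′ to 3′. Capitals mark matches on either strand to the GC box GGGCGG or the EGR site GCGNGGGCG.
Gabra4: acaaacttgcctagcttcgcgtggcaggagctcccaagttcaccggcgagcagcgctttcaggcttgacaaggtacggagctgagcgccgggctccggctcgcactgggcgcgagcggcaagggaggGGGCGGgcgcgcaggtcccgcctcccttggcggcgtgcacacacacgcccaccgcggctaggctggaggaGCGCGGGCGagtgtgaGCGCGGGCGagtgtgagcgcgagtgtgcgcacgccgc
Gabrg1: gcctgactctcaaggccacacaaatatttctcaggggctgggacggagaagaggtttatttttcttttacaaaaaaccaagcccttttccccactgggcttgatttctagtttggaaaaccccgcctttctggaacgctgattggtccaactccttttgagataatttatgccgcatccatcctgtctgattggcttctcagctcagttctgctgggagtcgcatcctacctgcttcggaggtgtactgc
Gabra4 held 1 GC box and 2 EGR sites, which did not overlap, and 71.6% of its bases were G or C. Gabrg1 held none and had 48.4%. Promoters were matched for 30 of the 41 members, and Gabra2 had no entry. The EGR site was found in 2 of the 30 members (Gabra4 and Gria4) and in 4.53% of 27457 promoters of the same length, and the GC box in 11 of 30 and 32.4%. The estrogen response element (GGTCA, any 3 bases, TGACC) was in none of the 30 and in 0.0219% of all, and its single arm GGTCA, which the full element contains, in 5 of 30 (Gabrq, Grik1, Grin1, Grin2c and Grm8) and 35.2% of all, searched on both strands. A match is a description of the letters in this window.

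Grin2b had the smallest p of any member for EB in PVN. It was 12.37, 12.30 and 12.24 in EB 1 to 3 and 11.43, 11.86 and 11.46 in Oil 1 to 3. No samples overlapped, and the difference of 0.71 (SE 0.15, 1.64-fold, limma unadjusted p = 0.00171, adjusted p = 0.681) did not reach 2-fold. The lower samples were again Oil 1 and Oil 3, and the difference was 0.44 (limma unadjusted p = 0.0556) without them and 0.65 (limma unadjusted p = 0.0379) without EB 1 and EB 2.

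PVN Oil 1 and Oil 3 were the 2 lowest of the 6 PVN samples for 13 members (31.7%), where this held for 11.7% of all gene probe sets. Without both, 4 members were higher and 2 lower at an unadjusted p of 0.05 or less, in place of 9 and 0 (beside 2.59% and 2.29% of all gene probe sets), 27 means lay above 0 (beside 49.2%), and the member called was Grm4 rather than Gabra4. Without EB 1 and EB 2, 5 members were higher and 2 lower (beside 5.13% and 3.79%), 29 means lay above 0 (beside 48.5%), and Gabra5 was called, which rests on the high signal of EB 3, the one EB sample left. Each of these fits leaves 1 sample in an arm, which was assumed to vary like the other arm. The calls in them stand without the share of all gene probe sets called. The part of the tissue sampled in these differences was not tested.

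In ARC, 0 of 41 members were called, where 0.479% of all gene probe sets were called. An unadjusted p of 0.05 or less was reached by 4 members (9.76% beside 5.66% of all gene probe sets), 2 higher (Grm8 and Grik2, beside 2.9% of all) and 2 lower (Grik3 and Gabre, beside 2.76%). Means lay above 0 for 30 of 41 members, 73.2% beside 51.7% of all. Making the background medians of the ARC arrays equal, which are lowest in Oil 1, moved the median of all gene probe sets to -0.26 and left 10 of 41 means above 0 beside 11.1% of all.

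Grik3 was 9.78, 9.30 and 8.93 in ARC EB 1 to 3 and 10.31, 10.58 and 9.78 in Oil 1 to 3. The groups met at 9.78, and the difference was -0.89 (SE 0.27, 1.85-fold lower, limma unadjusted p = 0.0134, adjusted p = 0.852). Gabre was 8.73, 7.98 and 7.54 against 8.64, 9.25 and 8.78, with EB 1 inside the Oil range, a difference of -0.81 (SE 0.31, limma unadjusted p = 0.0334). Grm8, a presynaptic group III receptor, was 9.87, 10.24 and 10.12 against 9.28, 9.26 and 9.89, a difference of 0.60 (SE 0.21, limma unadjusted p = 0.0215), with EB 1 just below Oil 3.

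The EB samples lowest for Grik3 and Gabre and highest for Grm8 were EB 2 and EB 3, those with midbrain and mammillary markers. These were the 2 highest ARC samples for 9 members (22% beside 10.4% of all gene probe sets) and the 2 lowest for 3 (7.32% beside 9.44%). Without ARC EB 1, Grik3 (-1.11), Gabre (-1.13) and Gabrb2 were called, and without ARC Oil 3 Grik3 was (-1.11). These calls stand without the share of all gene probe sets called in the same fits. Without ARC Oil 1, EB 2 and EB 3 together no member was called, and 23 of 41 means lay above 0 (beside 49.8% of all gene probe sets) in place of 30. That fit sets EB 1 alone against 2 Oil samples, which supply its spread.

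Grm2 differed widely among ARC samples of 1 treatment. It was 11.36, 13.56 and 12.06 in EB 1 to 3 and 10.02, 11.84 and 14.14 in Oil 1 to 3. Grm4, another presynaptic group III receptor, put the 6 samples in the same order, at 10.16, 11.15 and 10.85 and at 9.38, 10.55 and 11.94, an order noticed after the values were seen.

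In NTS, 0 of 41 members were called, where 0.0776% of all gene probe sets were called. The one member with an unadjusted p of 0.05 or less (2.44% beside 4.65% of all gene probe sets, 2.28% higher and 2.37% lower) was Gabrr1, at 4.79, 4.73 and 4.62 with EB and 4.92, 5.08 and 5.73 with Oil, below background throughout (-0.53, SE 0.22, limma unadjusted p = 0.0452). Without NTS Oil 3 the difference was -0.29 (limma unadjusted p = 0.0714). Gabrp, also below background, differed by -0.24 (SE 0.11, limma unadjusted p = 0.0645). Grin2b was 10.85, 10.53 and 10.50 in EB 1 to 3 and 10.59, 10.03 and 9.84 in Oil 1 to 3, overlapping groups with a difference of 0.47 (SE 0.22, limma unadjusted p = 0.0658). NTS Oil 3 was the lowest of the 6 samples for 17 members (41.5% beside 22.1% of all gene probe sets). It was also the highest for 12 members (29.3% beside 27.1%). Without NTS Oil 3 the difference for Grin2b was 0.32. Without NTS EB 3, Grin3b was called, given without the share of all gene probe sets called in that fit. Its signal in NTS Oil 2 and Oil 3, 7.05 and 6.44, lay below background. Means lay above 0 for 22 of 41 members (53.7% beside 48.2% of all).

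Whether the EB difference itself varied between regions was tested in 1 fit of all 18 arrays. No member reached an adjusted p of 0.05 for any pair of regions, and 0% of all gene probe sets did. The smallest adjusted p among the members was 0.925 for PVN against ARC, 0.797 for NTS against ARC and 0.999 for NTS against PVN. At an unadjusted p of 0.05 or less there were 3 members for PVN against ARC (7.32% beside 5.02%), 3 for NTS against ARC (7.32% beside 6.1%) and 0 for NTS against PVN (beside 3.88%). For PVN against ARC these were Grin2b, whose EB difference was larger in PVN by 0.82 (SE 0.25), Gabra4 by 1.30 (SE 0.59) and Gabrb1 by 0.56 (SE 0.23). The EB effects on these genes were thus not shown to differ between regions after adjustment.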

How the data were processed

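RNA from punches of ARC, PVN and NTS was hybridised to 18 arrays, 3 per region and treatment. Scanner files were corrected for background, normalized and put on the log2 scale by the array service, and the authors deposited the resulting log2 signal of 24834 probe sets (1646 controls). The authors compared groups in the Transcriptome Analysis Console. No read depth exists for arrays, and 3 samples per group limit the precision. Linear models were fitted with limma 3.58.1 and statmod 1.5.0 (R 4.3.3), with moderated variance, to the deposited values without filter: EB minus Oil on the 6 arrays of a region, and region differences and their interactions with EB on all 18, taken as independent. Benjamini-Hochberg adjustment ran over 23188 gene probe sets. Calls used an unadjusted p of 0.05 or less and 2-fold for EB, an adjusted p under 0.05 and 2-fold for regions, and an adjusted p under 0.05 for interactions. A group with all samples below the background median was given that median in an at-least fold. The fits were tested on simulated data. Figures and motif counts used Python 3.11.15, pandas 2.3.3, numpy 2.4.6 and matplotlib 3.10.9.

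Given in full were members called for EB, the 3 smallest p-values for EB per region and, per region pair, the 5 called members with the largest difference in each direction; Gabrb1 in PVN, the other subunits given with values, and the Grm2 and Grm4 order were chosen after their values were seen. The members, gene lists and tests were chosen with earlier results of these data known. Alternatives left out each sample in turn or samples with other markers, and changed the block, normalization, variance prior, filter and call rule. Gene symbols are those of the platform, and sequences and positions are from RefSeq (GRCr8). Probe sets without exactly 1 symbol were not used as members.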

Additional observations from a re-analysis of the deposited data

Results flagged for a closer look

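Treatment groups of 3 are too small for an outlier test, so the 6 samples of each region were pooled for each gene. In 11 of these sets of 6 (8.94%), the gap between the most extreme sample and its neighbour took more of the range than Dixon's critical value allows, where chance gives about 1 in 20. The share over all gene probe sets was not computed, so the 8.94% is not read as particular to the members. In 6 of the 11 the sample was NTS Oil 3, the lowest NTS sample for 22.1% of all gene probe sets and the highest for 27.1%. It lay below the others for Gabra4 (8.88 against 10.1 to 10.8, gap 0.645 of the range), Gabrb1 (10.0 against 10.6 to 10.8, 0.769), Gabrq (6.86 against 8.34 to 8.97, 0.701) and Grin3a (10.7 against 11.8 to 12.5, 0.628), and above them for Gabra5 (11.3 against 9.88 to 10.4, 0.633) and Gabrr2 (6.32 against 5.38 to 5.69, 0.674). PVN EB 3 was high for Gabra5 (12.1 against 10.5 to 11.1, 0.661) and Grin3b (5.76 against 5.45 to 5.55, 0.671) and low for Grik1 (9.99 against 10.7 to 11.1, 0.672). ARC EB 1 was high for Grik5 (10.3 against 9.48 to 9.74, 0.654), and ARC Oil 1 was low for Gabrr2 (5.13 against 5.44 to 5.63, 0.628). Grin3b in PVN and Gabrr2 lay below background.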

How the results depend on the processing

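Directions of the named members held in all 559 values computed over 25 pairs of gene and comparison. Calls were lost in 13 of them and gained in 6. The pairs were chosen from these data for small p-values or large differences, so a kept direction was likely in advance. Over all members, the number of ARC means above 0 did change between fits, as given above. Leaving out 1 sample gave counts of members called from 0 to 3 in ARC, 1 to 3 in PVN and 0 to 1 in NTS for EB, and from 0 to 3 for PVN minus ARC. Counts called in fits on fewer samples, here and above, stand without the share of all gene probe sets called in the same fit. A change in such a count is therefore not read as particular to the members. With an unadjusted p alone the counts for EB were 4 in ARC, 9 in PVN and 1 in NTS, with an adjusted p 0 in PVN, and with equal background medians in ARC (added after seeing the data) 2, Grik3 and Gabre, when every ARC difference shifted down alike. For PVN minus ARC the count was 0 in EB and 2 in Oil samples alone, 2 after median centring, 3 without 5 or 6 samples with other markers, and 2 without 8, the sets of 6 and 8 and the one without PVN EB 1 and EB 2 added after seeing the data. Without a minimum fold it was 10 for PVN minus ARC and 28 for each NTS comparison. For the EB difference in PVN minus that in ARC, an unadjusted p with 2-fold gave 1.

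Same-numbered samples deviated together (correlation above 0.1) in 1 of 9 EB and Oil pairs and 8 of 18 region pairs. The highest correlation was 0.13 for EB with Oil and 0.42 between regions. These values do not settle whether same-numbered samples of different regions share a rat. With the replicate number as a block, the counts were 0, 1 and 0 for EB in ARC, PVN and NTS, 1, 11 and 12 for PVN minus ARC, NTS minus ARC and NTS minus PVN, and 0 for each interaction, as without it. Every member has 1 probe set, so no other probe set could be tried. Signal near or below the background median limits Gabra6, Gabrd, Gabre, Gabrp, Grin2c, Grin3b, Grm6, Grik4 and the ρ subunits.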
